A study of Homo sapiens with 13 samples.

Results

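The stretches of RNA described here are 21-nucleotide windows bound by the splicing factor SRSF2 in transcripts annotated as retained-intron transcripts, in HEL cells, a human erythroleukemia line. They are the windows of the authors' deposited table of differential SRSF2 binding whose transcript class is retained_intron, with each position counted once by its first entry. Of 8100 positions in that table, 667 belonged to this class, and they lay in 288 host genes and 329 transcripts. In 603 of the 667 the end minus the start was 20, and in 64 it was 21. HITS-CLIP crosslinks RNA to protein with ultraviolet light, recovers the complex (here through a Flag tag) and sequences the attached RNA; it was made from 4 P95H and 4 WT samples after 36 hours in doxycycline at 1 µg/ml. Sequencing of rRNA-depleted RNA covered 2 P95H and 2 WT samples after 48 hours at the same dose and an uninduced P95H sample (n = 1). P95H cells stably carried SRSF2 with histidine in place of proline 95, and WT cells stably carried wild-type SRSF2. All samples were HEL cells grown in the same medium, and whether a line was a clone or a pool, and the state of the cells' own SRSF2 gene, are not given in the sources used.

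SRSF2 is an SR protein. Its RNA recognition motif binds short exonic sequences, and its arginine- and serine-rich region recruits the splicing machinery to nearby splice sites. Substitutions of proline 95 recur in myelodysplastic syndromes and related leukemias, and biochemical work describes wild-type SRSF2 as binding CCNG and GGNG motifs alike and the mutant protein as favouring CCNG over GGNG. A retained-intron transcript is, in the Ensembl annotation, an alternatively spliced transcript that keeps sequence which is intronic in other transcripts of its gene. Such RNAs are often held in the nucleus or degraded. A window assigned to such a transcript can lie in the kept intron or in the exons that it shares with coding transcripts, and no genome or exon annotation was used here to tell these apart.

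The sequences below belong to the 8 of 667 windows that lie wholly within the RefSeq promoter table (GRCh38.p14), which covers 250 bases before to 50 bases after each gene's start, and they are shown because they are the windows whose bases could be read here. Capitals mark every CCNG or GGNG on the strand of the window. The coordinates were read as counted from 1 with both ends included, which the table does not state; counted from 0, the base at the lower coordinate would drop out of each.
WARS, chr14:100375382-100375402, minus strand: gaaactgaaagaaagaGGGGa
YWHAE, chr17:1400184-1400204, minus strand: ttttgctgCCCGGacgcGGAG
SUPT5H, chr19:39445608-39445628, plus strand: ggtaccgaaGGCGGAGGTGga
NUCB1, chr19:48919036-48919056, plus strand: aaagtgtacgacccaaagaat
UBA3, chr3:69080339-69080359, minus strand: aacaatatGGCGgatGGCGag
RP11-111F5.4, chr9:62376316-62376336, minus strand: cccattgCCCGttttctgctg
RP11-111F5.4, chr9:62376334-62376354, minus strand: aatctggaCCCGaatccaccc
RP11-111F5.4, chr9:62376350-62376370, minus strand: aactccctCCTGCCAGaatct

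All 8 of these windows were lower in P95H, so no sequence of a window higher in P95H could be read. CCNG, in any of its 4 spellings, stood in 4 of the 8, or 50% (exact 95% binomial interval 15.7% to 84.3%), and GGNG stood in 4 of the 8 as well. Among the windows of other classes in the same promoter table, CCNG stood in 41.8% of the 98 that were lower in P95H and in 19.6% of the 51 that were higher, and GGNG in 52.0% and 51.0% of them. The first 21 bases of 35116 RefSeq genes held CCNG in 39.6% and GGNG in 34.6%. Windows overlap, matches can share bases, as the 2 CCNG matches of the YWHAE window do, and 8 windows from 6 genes are too few to set apart from these shares.

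SRSF2 itself was measured at 223 and 252 CPM (TMM-scaled counts per 1000000 counts) in the RNA of P95H samples and at 222 and 241 CPM in that of WT samples, against 286 CPM in the sample labelled uninduced. The RNA log2 change of P95H over WT was 0.05 (SE 0.11, adjusted p = 1 by edgeR's quasi-likelihood test). Gene counts do not tell the construct from the cells' own gene, so they do not check the genotype labels. The 4 replicated RNA libraries held 38052389 and 44618943 counts for P95H and 45005605 and 42112595 for WT, and 3 counts corresponded to 0.0667 to 0.0788 CPM. Mitochondrially encoded mRNAs took 1.38% and 4.3% of counts in P95H replicates 1 and 2, and 1.38% and 4.5% in WT replicates 1 and 2, so this share separated the replicate numbers and not the genotypes. All 9 erythroid and megakaryocytic markers of HEL cells were expressed, at a summed 1590 and 1850 CPM in P95H and 1680 and 1920 CPM in WT. Of the markers of other cells, 4 of 8 lymphoid genes passed the filter on low counts, with a sum of 5.2 to 7.41 CPM, and 2 of 9 epithelial and fibroblast genes, with a sum of 0.508 to 1.14 CPM. None of these marker genes hosted a retained-intron window.

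Most of the retained-intron windows were bound less by P95H than by WT. In the authors' deposited table, 177 of the 667 windows, or 26.5%, were higher in P95H, against 22.3% of all 8100 windows of the table, and 490, or 73.5%, were lower, against 77.7% of all. The table lists the windows that passed an adjusted p of 0.05 with means 2-fold or more apart, so these are shares of called windows, and the number tested is not given in the sources used. The median log2 change of the 667 was -1.61 (quartiles -2.34 and 1.12) in the authors' deposited table, beside -1.62 over the 7433 windows of all other classes. The 177 higher windows lay in 119 genes and the 490 lower ones in 184 genes.

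Both directions spanned a wide range. The authors' log2 changes ran from 1.03 to 8.49 with a median of 1.95 in the higher windows, and from -8.72 to -1.01 with a median of -1.92 in the lower ones, in the authors' deposited table. The 2 sets differed in level more than in size of change. Windows higher in P95H had a median of the authors' mean CPM of 1.58 in P95H and 0.22 in WT, and the most strongly bound reached 11.99 CPM in P95H. Windows lower in P95H had a median of 1.83 CPM in P95H and 7.33 CPM in WT, and reached 245.04 CPM in P95H and 706.02 CPM in WT. WT was listed at 0 in 12 of the higher windows and P95H at 0 in 21 of the lower ones, and for those the fold is not defined by the means.

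**Figure D1:**
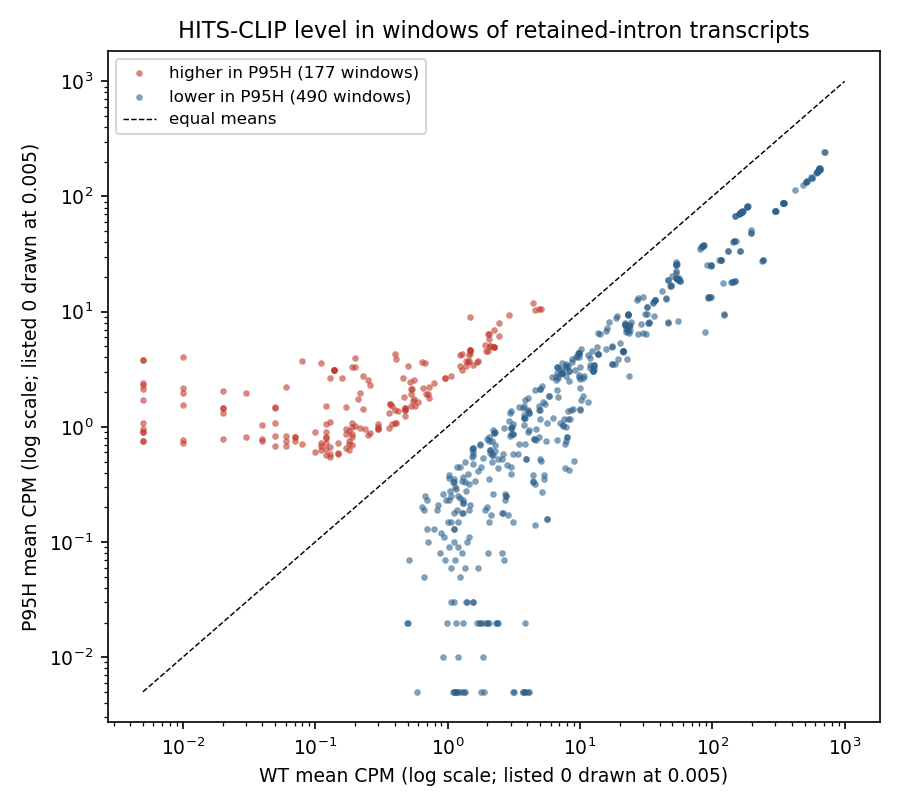
Authors' mean HITS-CLIP CPM of the 667 retained-intron windows in P95H (vertical, log scale) against WT (horizontal, log scale), 1 point per window, with means listed as 0 drawn at 0.005. The 177 windows higher in P95H end at 11.99 CPM, whereas the 490 lower windows run up to 245.04 CPM in P95H and 706.02 CPM in WT.

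Direction went with binding level in retained-intron and in protein-coding windows. Taking the mean of whichever genotype was higher, 55 of the 77 retained-intron windows under 1 CPM were higher in P95H (71.4%), as were 69 of 201 between 1 and 3 CPM (34.3%), 49 of 180 between 3 and 10 CPM (27.2%) and 4 of 209 at 10 CPM and over (1.91%). Protein-coding windows, the largest class with 5081 windows, gave 49.2%, 26.5%, 12.7% and 1.57% in the same bins. The retained-intron share was the higher of the 2 in each bin. All 7433 windows of other classes together gave 49.9%, 28.4%, 17.5% and 7.4%, so at 10 CPM and over the retained-intron share was below that of the other classes. These are descriptions: neighbouring windows share reads, and the table holds group means only, so the difference between classes was not tested.

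**Figure D2:**
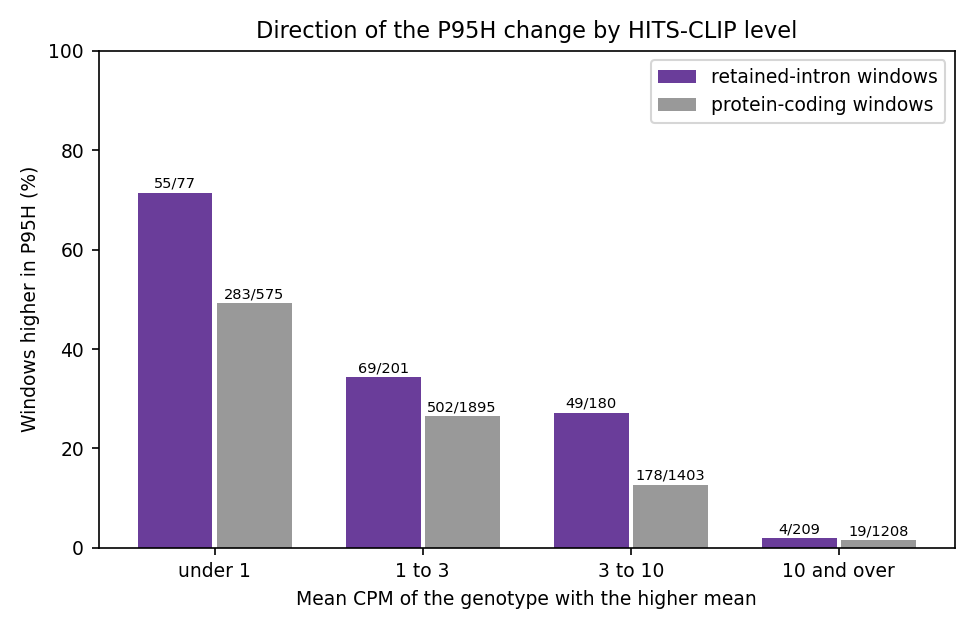
Percentage of windows higher in P95H (vertical, from 0) by the mean CPM of the genotype with the higher mean (horizontal), for retained-intron windows and for protein-coding windows. Numbers above the bars are windows higher in P95H over all windows in the bin; retained-intron windows fall from 71.4% under 1 CPM to 1.91% at 10 CPM and over.

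A retained-intron transcript shares much of its sequence with the coding transcripts of its gene, and 319 of the 667 windows (47.8%) overlapped a listed window assigned to another transcript class, 286 of them a protein-coding one. The 348 windows that overlapped none were split nearly evenly in direction, with 154 higher and 194 lower in P95H (44.3% higher, exact 95% interval 39.0% to 49.6%). Of the 319 overlapping windows 23 were higher and 296 lower (7.21% higher). The windows without overlap were also the weakly bound ones, with medians of 0.89 CPM in P95H and 1.21 CPM in WT, beside 5.37 CPM in P95H and 20.1 CPM in WT for those with overlap. By level, the windows without overlap were higher in P95H in 53 of 71 under 1 CPM (74.6%), 60 of 162 between 1 and 3 CPM (37.0%), 39 of 92 between 3 and 10 CPM (42.4%) and 2 of 23 at 10 CPM and over (8.7%), so the even split did not extend to the most strongly bound. Protein-coding windows without overlap were higher in P95H in 21.4% of 4327, processed-transcript windows in 24.1% of 241 and windows of nonsense-mediated decay transcripts in 41.5% of 176. The intervals treat windows as independent, which they are not. Merged into regions, the 257 retained-intron regions without overlap were higher in P95H in 48.6%. Among regions without overlap in the other classes, the share was 30.7% for protein-coding, 30.9% for processed-transcript and 42.3% for nonsense-mediated decay transcripts.

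The windows stood mostly in the 3′ part of their genes. Their median position was 72.2% of the way along the host gene, and protein-coding windows had a median of 66.8%. Windows higher in P95H had a median of 62.9% (quartiles 44.2% and 89.6%). Those lower in P95H had one of 72.9% (quartiles 54.0% and 83.1%). Closely spaced windows of single genes, such as the 61 of NCL, weigh on the lower set, so the 2 spreads cannot be compared. With 1 value per gene, not split by direction, the medians were 67.8% for retained-intron and 64.7% for protein-coding windows. The last 10% of the gene held 89 of the 667 windows (13.3%) and the first 10% held 33 (4.95%). Of the 5081 protein-coding windows these parts held 982 (19.3%) and 585 (11.5%), so the retained-intron class had the smaller share at both ends. At the 3′ end this did not hold for each direction. The last 10% held 44 of the 177 windows higher in P95H (24.9%), above the protein-coding share, and 45 of the 490 lower ones (9.18%). The first 10% held 7 higher windows (3.95%) and 26 lower ones (5.31%), both shares below the protein-coding one. These shares by direction count windows and not genes, and their difference was not tested.

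A few genes held many windows, often a base or a few apart. Of the 288 host genes, 173 had 1 window and 21 had 5 or more, and the 10 with the most held 182 windows (27.3%). Overlapping windows of 1 direction formed 370 regions, of which 141 were higher in P95H and 229 lower, or 38.1% higher. Merged in the same way, 34.0% of the 3713 regions of all windows and 29.8% of the 2494 protein-coding regions were higher. Windows were only higher in P95H in 104 host genes, only lower in 169 and in both directions in 15. Most hosts, 270 of 288, were protein-coding genes, beside 9 classed as processed transcripts, 8 pseudogenes and 1 lincRNA.

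NCL held more of these windows than any other gene. It encodes nucleolin, an abundant nucleolar RNA-binding protein that acts in ribosome assembly. All 61 NCL windows were lower in P95H, with log2 changes from -3.26 to -1.31 in the authors' deposited table, and 56 of them overlapped a window of another class. The highest, in transcript NCL-002 at chr2:231460691-231460712 on the minus strand, had an authors' mean of 245.04 ± 218.22 CPM in P95H and 706.02 ± 646.07 CPM in WT (SEM over 4 samples). Its log2 change was -1.53 (adjusted p = 0.00157) in the authors' deposited table. The SEM was thus nearly as large as the mean in both genotypes, and the means did not differ by more than their summed SEM. The 129 NCL windows in protein-coding transcripts were likewise all lower, with a median log2 change of -1.75.

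PTMA, which encodes the nuclear protein prothymosin alpha, held 35 windows in 2 regions, all lower in P95H, with log2 changes from -3.73 to -1.13 in the authors' deposited table. All 35 overlapped a window of another class. The highest WT window of PTMA, at chr2:231711922-231711943, had an authors' mean of 28.35 ± 22.07 CPM in P95H and 241.91 ± 221.45 CPM in WT. Towards the 5′ end of the gene the change was smaller, with 81.98 ± 41.46 CPM in P95H and 184.56 ± 106.71 CPM in WT at chr2:231711354-231711374. Together NCL and PTMA supplied 96 of the windows. Without them 31.0% of the remaining 571 retained-intron windows were higher in P95H, beside 22.4% of the other windows without the same 2 genes.

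DNMT1, the maintenance DNA methyltransferase, held 18 overlapping windows of a single transcript and region, DNMT1-016, all lower in P95H. All 18 also overlapped a listed window of another class. The window at chr19:10166615-10166635 had an authors' mean of 21.75 ± 12.87 CPM in P95H and 53.15 ± 40.98 CPM in WT, and the one at chr19:10166657-10166677 had 0.27 ± 0.27 CPM in P95H and 5.16 ± 4.27 CPM in WT. Within this region the authors' deposited table thus ran from a log2 change of -1.30 to one of -4.0. HMGB2, a chromatin protein of the high-mobility group, held 12 windows, all lower, and reached 48.31 ± 40.5 CPM in P95H against 197.32 ± 171.51 CPM in WT. A window of another class overlapped each of these 12 as well.

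The chaperones of the endoplasmic reticulum came next. HSP90B1, the HSP90 form of that compartment, held 13 windows, all lower, and its strongest gave 37.64 ± 20.47 CPM in P95H and 86.55 ± 45.22 CPM in WT, with a log2 change of -1.21 (adjusted p = 0.0141) in the authors' deposited table. CALR, which encodes calreticulin, held 10 windows, all lower, the strongest with 13.53 ± 5.06 CPM in P95H and 29.88 ± 17.59 CPM in WT. CANX, which encodes the related calnexin, held 2, both lower. Over the list of 26 chaperones, 6 genes hosted 28 retained-intron windows and all 28 were lower in P95H, beside 73.5% of all 667 windows. HSP90B1 and CALR supplied most of the 28, many of them overlapping, so these are few separate sites. A window of another class overlapped 11 of the 13 HSP90B1 windows and 6 of the 10 CALR windows.

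TPT1, which encodes the translationally controlled tumour protein, had 8 lower windows close together and 1 higher window. The higher one had 1.79 ± 0.79 CPM in P95H and 0.72 ± 0.58 CPM in WT. RALY, an RNA-binding protein of the hnRNP family, held 8 windows in 1 region, all lower, with 4.37 ± 3.89 CPM in P95H and 9.93 ± 3.73 CPM in WT at the strongest. Here the SEM of WT was 0.376 of its mean, among the smaller values of the class. In P95H the SEM of this RALY window was nearly as large as its mean, and the means did not differ by more than their summed SEM. ARL6IP4, a protein of nuclear speckles, held 8 windows, all lower, and reached 7.07 ± 2.69 CPM in P95H and 22.52 ± 9.74 CPM in WT. Windows of another class overlapped 6 of the 8 ARL6IP4 windows, 4 of the 8 RALY windows and 0 of the 9 TPT1 windows.

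**Figure D3:**
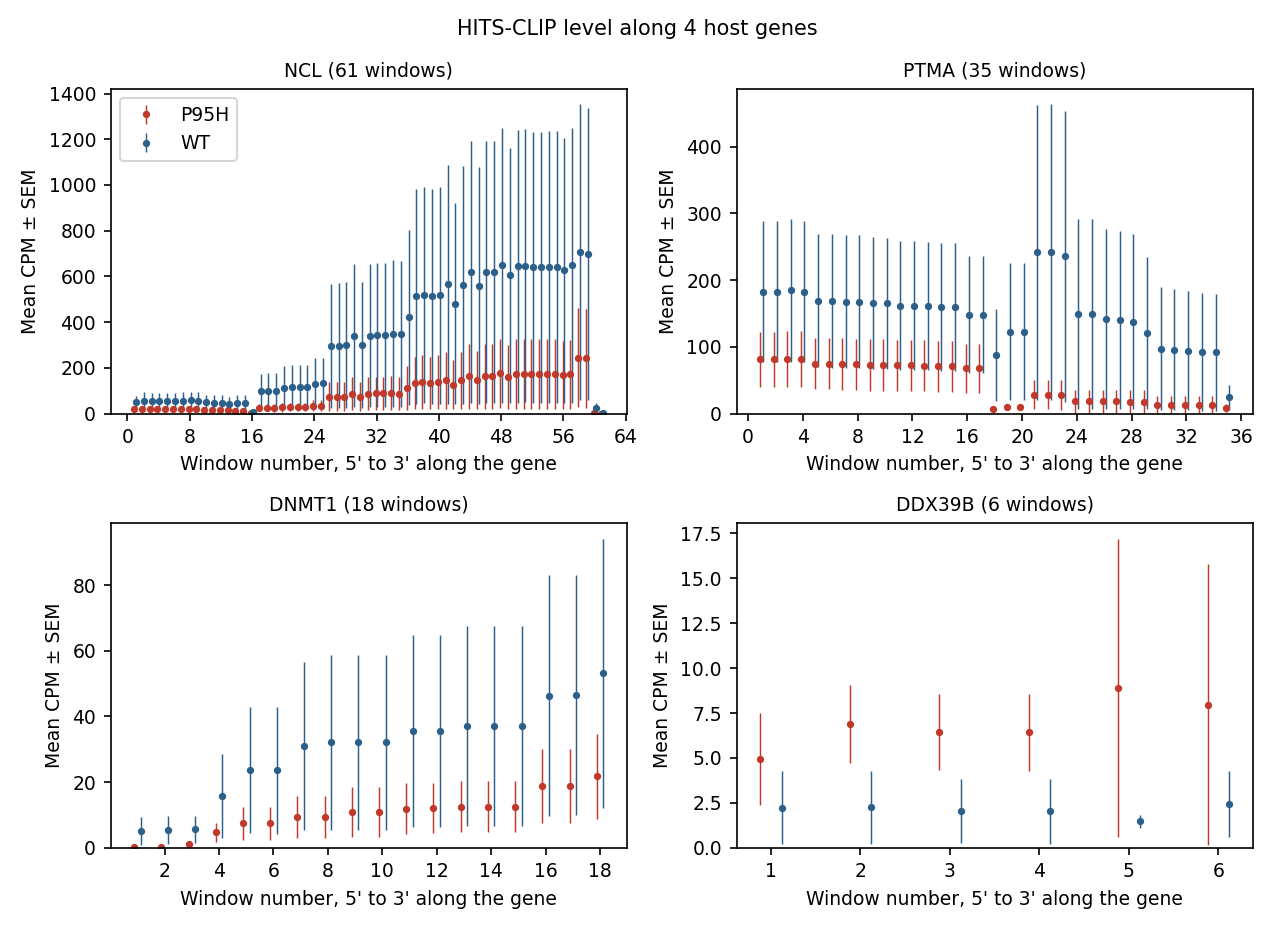
Authors' mean HITS-CLIP CPM (vertical, from 0) of each retained-intron window of NCL, PTMA, DNMT1 and DDX39B, numbered 5′ to 3′ along the gene (horizontal), with P95H left of WT and bars of 1 SEM over 4 samples. WT is above P95H in every window of NCL, PTMA and DNMT1, P95H is above WT in all 6 windows of DDX39B, and the bars of most NCL windows overlap.

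DDX39B was the host with the most windows that were all higher in P95H. It encodes an RNA helicase that acts in spliceosome assembly and mRNA export. Its 6 windows formed 3 regions on the minus strand of chromosome 6, overlapped no window of another class, and no other window of the gene was listed. In the region nearest the 5′ end, the window at chr6:31534935-31534955 had 6.89 ± 2.15 CPM in P95H and 2.25 ± 2.04 CPM in WT. Its log2 change was 1.48 (adjusted p = 0.00231) in the authors' deposited table. The relative error was small in P95H only, and in WT the SEM was nearly as large as the mean. At chr6:31534940-31534960, in the same region, 4.94 ± 2.58 CPM in P95H and 2.23 ± 2.03 CPM in WT did not differ by more than the summed SEM. The window with the largest change, at chr6:31533513-31533533, had 8.9 ± 8.31 CPM in P95H and 1.47 ± 0.36 CPM in WT. There a single P95H sample must have held at least 90.4% of the summed CPM.

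Among windows at or above the median level of 3.95 CPM, the largest rises were in PIGG, RABAC1, SLC25A37, DDX39B, UBA7, RPL4, KANSL1L and AP2A1. PIGG acts in the synthesis of glycosylphosphatidylinositol anchors, and its window had 4.03 ± 3.71 CPM in P95H and 0.01 ± 0.01 CPM in WT. RABAC1, a vesicle transport protein, had 3.96 ± 3.49 CPM in P95H and 0.2 ± 0.2 CPM in WT. SLC25A37, mitoferrin, the mitochondrial iron importer of erythroid cells, had 4.3 ± 4.08 CPM in P95H and 0.4 ± 0.27 CPM in WT. In all 3 the SEM of P95H was at least 0.881 of its mean, so a single sample held at least 83.3% of the P95H signal. UBA7, the activating enzyme of ISG15, gave 4.21 ± 2.53 CPM in P95H and 1.25 ± 0.7 CPM in WT, and AP2A1, a clathrin adaptor subunit, gave 4.25 ± 2.4 CPM in P95H and 1.28 ± 1.2 CPM in WT. Their log2 changes were 1.69 and 1.5 in the authors' deposited table, smaller than those of the first 3, with smaller relative errors in P95H. In WT the SEM of AP2A1 was nearly as large as its mean. The means of UBA7, AP2A1 and SLC25A37 did not differ by more than their summed SEM, whereas those of PIGG and RABAC1 did.

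The largest falls by the same rule were in GOLGA6L4, FBL, YWHAE, PELP1, BRMS1, DDX23, TIMELESS and DNMT1. FBL encodes fibrillarin, the methyltransferase of box C/D small nucleolar ribonucleoproteins, and its window had 0.16 ± 0.14 CPM in P95H and 5.66 ± 5.56 CPM in WT. YWHAE, a 14-3-3 protein, had 0.14 ± 0.11 CPM in P95H and 4.58 ± 3.4 CPM in WT, in the window whose sequence is printed above with 2 overlapping CCNG and 1 GGNG. DDX23, a helicase of the tri-snRNP, had 0.42 ± 0.25 CPM in P95H and 8.33 ± 7.31 CPM in WT, and its other 2 windows, a few bases away, were lower by less, at -2.01 and -1.09 in the authors' deposited table. PELP1, a transcriptional coregulator, BRMS1, a subunit of a deacetylase complex, and TIMELESS, a replication fork protein, had log2 changes of -4.48, -4.42 and -4.05 in the authors' deposited table. GOLGA6L4 was listed at 0 in P95H and at 4.14 ± 4.11 CPM in WT. It is one of a family of near-identical golgin genes, to which reads cannot be assigned with certainty, and in WT a single sample held at least 98.9% of the signal. ANP32A, an acidic nuclear phosphoprotein, completed the 5 most strongly bound genes with 8.38 ± 6.13 CPM in P95H and 55.22 ± 49.94 CPM in WT.

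The error behind these means was large throughout. The authors' deposited table gives no value per sample, but with 4 samples and no negative values the ratio of SEM to mean bounds the share of the highest sample. In the genotype with the higher mean the ratio had a median of 0.77 over the 667 windows and of 0.735 over all other windows. Above a ratio of 0.577 a single sample must hold more than 50% of the summed CPM, and 548 of the 667 windows (82.2%) were above it, beside 79.9% of the other windows. The ratio was 0.9 or more in 186 windows and below 0.5 in 59. The 2 means differed by more than both SEMs together in 178 windows (26.7%), of which 57 were higher and 121 lower in P95H, beside 31.3% of the other windows. Which sample was the high one, and whether it was the same in different windows, is not given in the sources used.

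**Figure D4:**
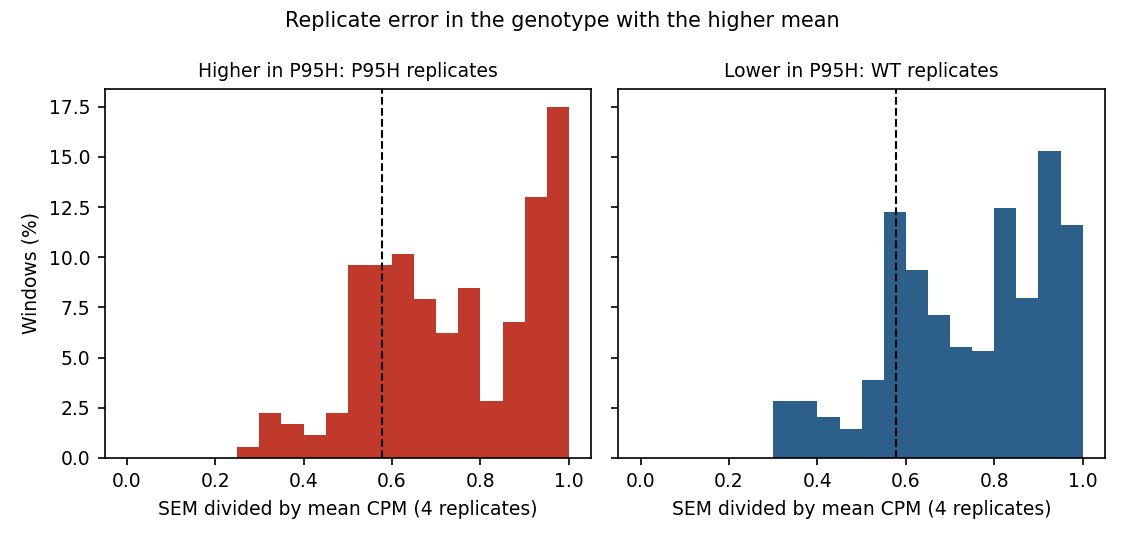
Ratio of SEM to mean CPM over 4 samples (horizontal) in P95H for the 177 windows higher in P95H and in WT for the 490 lower ones, with the percentage of windows per bin (vertical). Right of the dashed line at 0.577 a single sample must hold more than 50% of the signal, as in 548 of the 667 windows.

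Some changes rested on smaller errors. TAF15, a nuclear RNA-binding protein, held 5 windows within 1 region, all lower in P95H, and the one at chr17:35820394-35820414 had 3.04 ± 1.95 CPM in P95H and 12.48 ± 4.22 CPM in WT. The SEM was 0.338 of the WT mean, and the log2 change was -1.97 (adjusted p = 5.92e-05) in the authors' deposited table. DDX5, a helicase with roles in splicing, was similar, with 0.79 ± 0.7 CPM in P95H and 4.52 ± 2.03 CPM in WT in 1 of its 3 windows.

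In 15 of the 288 host genes the listed windows went in both directions. Whether such differences within a gene exceed the spread between samples was not tested. The 8 with the most windows were ANKZF1, ARHGAP30, FBL, GOLGA8A, GOLGA8B, KRI1, TMEM45A and TPT1. TMEM45A, a membrane protein gene, had 6 windows from 93.5% to 95.1% of the way along the gene, 4 higher and 2 lower in P95H, and no coding window. One of them, at chr3:100572334-100572354, had 5.12 ± 2.47 CPM in P95H and 1.92 ± 1.11 CPM in WT, while that at chr3:100572574-100572594 had 0.34 ± 0.18 CPM in P95H and 1.6 ± 1.3 CPM in WT. KRI1, a gene of ribosome biogenesis by its yeast counterpart, had 4 overlapping lower windows with up to 7.59 ± 6.51 CPM in WT and, further 3′, 1 higher window with 0.92 ± 0.68 CPM in P95H and 0.18 ± 0.18 CPM in WT. ANKZF1, a factor of ribosome-associated quality control, had 3 lower windows followed by 2 higher ones. FBL had its fall and, in the same transcript, a window with 2.21 ± 2.19 CPM in P95H and 0.06 ± 0.05 CPM in WT. A single sample held at least 98.6% of the P95H signal in that window and at least 97.4% of the WT signal in the fall. GOLGA8A and GOLGA8B, neighbouring and near-identical golgin genes on chromosome 15, shared windows with identical values, such as 2.63 ± 1.98 CPM in P95H and 0.96 ± 0.94 CPM in WT, so the same reads were counted at both. In all, 18 windows in 12 genes had a listed window with the same 4 values more than 1000 bases away.

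The host's coding windows mostly moved the same way. Of the 288 host genes, 156 also had windows in protein-coding transcripts and 117 had no window outside the retained-intron class. The median retained-intron and coding changes had the same sign in 124 of the 156, with both lower in 96 and both higher in 28. In 19 genes the retained-intron median was higher in P95H and the coding one lower, and in 13 the reverse held. Overlapping windows share reads, so this is a description and not independent evidence.

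Genes that themselves act in splicing were among the hosts. Of 14 SR proteins, the family of SRSF2, 2 hosted windows, SRSF10 and SRSF3, and all 3 of their windows were higher in P95H. SRSF10, a splicing repressor active when dephosphorylated, had 0.83 ± 0.49 CPM in P95H and 0.05 ± 0.03 CPM in WT, and SRSF3, the smallest SR protein, had 0.66 ± 0.38 CPM in P95H and 0.17 ± 0.09 CPM in WT. The 2 SRSF10 windows overlapped. All 3 windows lay under 1 CPM, near the low end of the table, as did the 3 windows of U2SURP given below. At that level 71.4% of all retained-intron windows were higher in P95H. None of 7 SR protein kinases hosted a window. Of 19 U2 snRNP and 3′ splice site factors 2 did: U2SURP, a U2-associated SR-like protein, had 3 windows higher in P95H, the strongest at 0.72 ± 0.39 CPM in P95H and 0.12 ± 0.08 CPM in WT, and SNRPA1, the U2 A′ protein, had 1 lower window with 4.11 ± 1.71 CPM in P95H and 9.52 ± 3.75 CPM in WT.

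The hnRNPs, abundant nuclear proteins that often oppose SR proteins, included 7 hosts of 27, with 4 windows higher and 16 lower in P95H. HNRNPA2B1 had 1.17 ± 0.45 CPM in P95H and 8.36 ± 4.59 CPM in WT. HNRNPM had 4 overlapping lower windows, the strongest with 0.91 ± 0.54 CPM in P95H and 4.02 ± 3.24 CPM in WT. HNRNPU, a chromatin-associated RNA-binding protein, had 2 higher windows, 1 of them at 0.98 ± 0.27 CPM in P95H and 0.36 ± 0.13 CPM in WT, and 1 lower window with 3.43 ± 2.3 CPM in P95H and 11.93 ± 10.12 CPM in WT. The 6 helicase hosts of 21 had 9 higher and 7 lower windows, 6 of the higher ones in DDX39B. DDX6, a helicase of mRNA storage and decay, had 1 of each: the higher one had 0.91 ± 0.88 CPM in P95H and 0.1 ± 0.1 CPM in WT.

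The other SR-related and RNA-binding proteins gave 11 hosts of 31 and 85 windows, of which 84 were lower in P95H. NCL supplied 61 of them. RBM25, a splicing regulator, had 8 lower windows, all overlapping a window of another class, with up to 14.18 CPM in WT. PNN, a speckle protein bound to exon junctions, had 2 with 5.01 ± 2.65 CPM in P95H and 17.4 ± 12.92 CPM in WT at the first. The higher window was in CCNL1, a cyclin with an arginine- and serine-rich tail, at 0.71 ± 0.43 CPM in P95H and 0.08 ± 0.06 CPM in WT. Of 15 genes known for introns kept in nuclear RNA, 4 were hosts, with 2 windows higher in P95H, in CCNL1 and EIF4A2, and 4 lower.

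Genes of the translation machinery were divided. Of 87 genes of ribosomal proteins and their close paralogs 14 hosted windows, with 9 windows higher and 12 lower in P95H, and 7 genes went each way. RPL4 had 9.3 ± 5.85 CPM in P95H and 2.93 ± 2.51 CPM in WT at its stronger window, with a log2 change of 1.57 (adjusted p = 0.00125) in the authors' deposited table. RPL3 had 7.93 ± 5.22 CPM in P95H and 22.06 ± 18.99 CPM in WT, and RPL5 had 2.94 ± 1.86 CPM in P95H and 7.32 ± 2.53 CPM in WT. The 2 RPL3 and all 3 RPL5 windows lay inside small nucleolar RNAs encoded in their introns on the same strand, SNORD83B and SNORD21, so the reads may come from either RNA. With 1 window of LRRC75A-AS1 inside SNORD49A, 6 windows overlapped a small RNA gene, and all 6 were lower in P95H. RPL36A had 2 lower windows with a single WT sample holding at least 96.8% of the signal. Of 31 translation factors 6 were hosts, with 4 windows higher and 5 lower. EEF1A1, the elongation factor that delivers tRNAs, had 3.37 ± 1.61 CPM in P95H and 1.25 ± 0.84 CPM in WT. EIF3C, an initiation factor subunit, had 4 lower windows with up to 1.2 ± 1.2 CPM in P95H and 3.82 ± 2.24 CPM in WT. None of 16 nonsense-mediated decay and exon junction genes hosted a retained-intron window.

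The RNA of the host genes was compared to ask whether their abundance differed along with binding. Of the 288 hosts, 283 passed the filter on low counts. Fitted on genotype alone, none was called at an adjusted p under 0.05 by edgeR's quasi-likelihood test (2 P95H against 2 WT samples), where 0.0% of 22007 genes were called, and DESeq2's Wald test called none either. At an unadjusted p under 0.05 edgeR found 5 hosts (1.77%), beside 227 of all genes (1.03%), and DESeq2 found 3 hosts. Both fits leave the spread between replicate numbers in their error, so a lack of calls does not show equal RNA. With replicate number in the fit some genes were called, as given below. The median log2 change of the hosts was -0.012, with 125 above and 158 below 0, beside 0.002 over all genes, and between the same-numbered libraries it was -0.03 for replicate 1 and 0.01 for replicate 2. The RNA log2 changes ran from -0.47 to 0.63, so none of these 283 hosts differed by 2-fold; without the filter on low counts 2 of 287 did, neither of them called. The RNA of 53 hosts (18.7%) did not overlap between genotypes, 22 higher and 31 lower in P95H, beside 24.1% of all genes. A gene count adds up all transcripts of a gene, so it says nothing on the level of the retained-intron transcript itself.

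RNA did not separate the hosts by the direction of their windows. Hosts with windows only higher in P95H had a median RNA log2 change of -0.015 (102 genes tested), those with windows only lower one of -0.01 (166 genes), and those with both one of -0.01 (15 genes). NCL, with 61 lower windows, had 2560 and 2620 CPM of RNA in P95H and 2540 and 2630 CPM in WT, so the genotypes overlapped. PTMA had 1800 and 1760 CPM in P95H and 1910 and 1840 CPM in WT, lower in both P95H samples by a log2 change of -0.07 (SE 0.12, adjusted p = 1 by edgeR). DNMT1 had 602 and 655 CPM in P95H and 635 and 682 CPM in WT. HSP90B1 had 1050 and 1480 CPM in P95H and 993 and 1380 CPM in WT, and CALR 698 and 1010 CPM in P95H and 680 and 1020 CPM in WT. In these 2 chaperone genes the replicate numbers differed by more than the genotypes. HMGB2, TPT1, RALY and RBM25 had RNA log2 changes between -0.04 and 0.02, none of them called.

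DDX39B, whose windows were all higher in P95H, had 96.9 and 137 CPM of RNA in P95H and 91.5 and 113 CPM in WT, a log2 change of 0.20 (SE 0.19, adjusted p = 1 by edgeR) with overlapping samples. SRSF3 had 478 and 515 CPM in P95H and 508 and 535 CPM in WT, and SRSF10 had 359 and 423 CPM in P95H and 332 and 413 CPM in WT. ARL6IP4 was at 0.279 and 0.766 CPM in P95H and 0.44 and 0.842 CPM in WT, among the lowest levels of the hosts tested. Its windows reached 22.52 CPM in WT CLIP, but CPM per gene in RNA and CPM per window in CLIP are not on the same scale. The 11 gene lists showed no called member in RNA, and their median RNA log2 changes lay between -0.06, for translation factors, and 0.08, for genes with kept introns.

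The 5 hosts with the smallest p in RNA were EIF3C, GOLGA8A, LST1, PHYKPL and GOLGA8B, all higher in P95H without passing the adjusted threshold in the fit on genotype alone. EIF3C had 30.8 and 29.5 CPM in P95H and 20.9 and 21.3 CPM in WT, a log2 change of 0.53 (SE 0.12, unadjusted p = 0.00384 and adjusted p = 1 by edgeR), and its CLIP windows were lower in P95H. EIF3C has a near-identical copy, EIF3CL, so its counts depend on how shared reads were treated. GOLGA8A had 106 and 122 CPM in P95H and 90.4 and 95.1 CPM in WT, and GOLGA8B had 33.4 and 39.3 CPM in P95H and 30.1 and 27.6 CPM in WT, with the same limit. LST1, a leukocyte transcript, had 31.3 and 27.7 CPM in P95H and 24.3 and 16.4 CPM in WT, while its CLIP window had 1.19 ± 0.54 CPM in P95H and 6.28 ± 6.09 CPM in WT. PHYKPL, a phospholyase, had 60.3 and 65.3 CPM in P95H and 51.3 and 53.1 CPM in WT, and its CLIP window had 0.99 ± 0.98 CPM in P95H and 0.19 ± 0.1 CPM in WT. In these 5 genes all P95H samples lay above all WT samples. They were picked by p in the same samples, so this is not separate evidence, and in 24.1% of all genes the genotypes did not overlap.

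**Figure D5:**
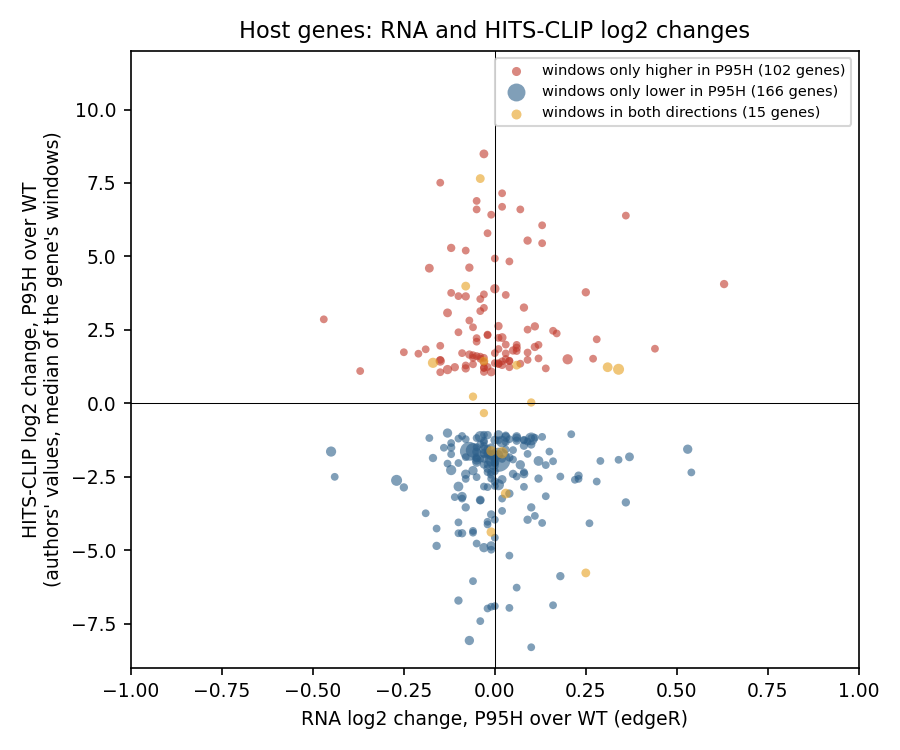
Authors' HITS-CLIP log2 change of P95H over WT, as the median over a gene's retained-intron windows (vertical), against the RNA log2 change of P95H over WT by edgeR (horizontal, on a narrower scale) for 283 host genes, with point area growing with the number of windows. RNA changes stay between -0.47 and 0.63 while binding changes reach 8.49, and the gap around 0 on the vertical axis comes from the 2-fold minimum of the authors' table.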

How the data were processed

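The HITS-CLIP table is the authors' own comparison. Per the file headers it gives, for each window, the mean CPM of each genotype and its standard error, a log2 change of P95H over WT and an FDR (an adjusted p-value), all computed and deposited by the authors; the total behind the CPM and the form of adjustment are not given in the sources used, and it holds no value per sample, so no test of binding was run. Of 8324 entries, 224 repeated a position. The RNA table holds raw counts per gene as deposited by the authors. Build GRCh38.p3 and the tools TopHat2 2.0.14, STAR 2.5.3a and edgeR are named, without their roles, per the submitters' processing notes; whether counting used strand is not given in the sources used.

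The RNA counts were compared with edgeR 4.0.16 in R 4.3.3 (filterByExpr, TMM, quasi-likelihood test on group, 2 P95H against 2 WT, two-sided, Benjamini-Hochberg over 22007 genes, threshold 0.05) and DESeq2 1.42.0, after a check on simulated data. The sample labelled uninduced entered no test. Where nothing says that replicates came from separate cultures, p-values measure the spread between these samples. Windows were handled in Python 3.11.15 with pandas 2.3.3 and scipy 1.17.1, merged where they overlapped or adjoined on 1 strand in 1 direction, and figures were drawn with matplotlib 3.10.9.

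Named were SRSF2, the 10 hosts with the most windows, the 8 largest rises and 8 largest falls among windows at or above the members' median level, the 5 most strongly bound genes, up to 8 hosts with both directions, the 5 hosts of smallest RNA p, and up to 4 hosts of each of 14 gene and marker lists; TAF15, DDX39B, RBM25 and CANX fall under the lists, and remarks on single windows were chosen after their values were seen. Of the genes that this rule takes, 1 is not reported here. The symbol rule of the ribosomal protein list took 101 symbols, of which 14 were S6 kinases, RPS19BP1 and readthrough loci and are left out of its window counts. The members and lists were chosen with earlier results of these data known. Intervals are exact binomial at 95% and, like the floor of 3 counts, cover counting error only. The share of windows within introns and motif shares over all windows were not computed, because no genome was used here.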

Additional observations from a re-analysis of the deposited data

How the results depend on the processing

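RNA calls depended on the replicate block. The numbers are shared by both genotypes, but the labels do not say that a number marks a shared culture, and there are only 2 of them; deviations of same-numbered libraries correlated at 0.535 across genes. With the block, edgeR called 4 hosts (1.41%) and 84 genes in all (0.382%). The 4 hosts were EIF3C (RNA log2 change 0.53, adjusted p = 0.00312), LST1 (0.57, adjusted p = 0.00284), PLEK (-0.38, adjusted p = 0.00766) and CTR9 (-0.39, adjusted p = 0.0305). Without a filter 15 genes of all were called and no host. Leaving out a replicate left 0 calls, with host medians from -0.055 to 0.014. The RNA log2 change then changed sign in SRSF2 (-0.056 to 0.126), NCL (-0.02 to 0.028), HSP90B1 (-0.178 to 0.351), HMGB2 (-0.123 to 0.085, and 0.007 with at least 1 CPM in 2 libraries), CALR (-0.287 to 0.328), TPT1 (-0.205 to 0.263) and ARL6IP4 (-1.189 to 0.267), none of them called.

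Window counts, higher then lower in P95H with the median log2 change, were 141, 229 and -1.4 as merged regions, 84, 218 and -2.55 at 4-fold, and 30, 305 and -1.8 at or above the median level; an adjusted p of at most 0.01 gave a median of -1.92. Added after seeing the data, windows without overlap gave 154, 194 and -1.16, and means apart by both SEMs 57, 121 and -2.41. Windows in which no sample must have held over 50% of the sum, although one may have, gave 38, 81 and -1.2. No alternative turned the majority. Motif shares stayed within their interval, and the share within introns was not run. CLIP depth is unknown.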
